A study of Macaca fascicularis with 4 samples.

Results

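TBX2, TBX3, TBX4, TBX5, TBX18 and TBX20 are 6 members of the T-box family, transcription factors that bind DNA through a shared T domain and act as activators or repressors of patterning genes. They were chosen by symbol: 6 of the 26222 gene rows that carry a name, all 6 present in every library, beside 11 other T-box genes in the tables. In mouse and chick embryos TBX5 drives outgrowth of the forelimb and builds the heart, TBX4 marks the hindlimb and the allantois, and TBX20 acts in heart and motor neurons. TBX2 and TBX3 are mainly repressors that act in limb margins, heart, lung and kidney, and TBX18 is needed for the front part of somites, epicardium, the sinus node and the mesenchyme around the ureter. In the RefSeq annotation T2T-MFA8v1.1 of the species, TBX3 and TBX5 are neighbours with 0 protein-coding genes between them, and TBX2 and TBX4 lie on a shared chromosome with 1 entry, LINC02875, between.

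Cells came from cynomolgus monkey (Macaca fascicularis) embryos, with no strain or treatment named, in 1 droplet library per age, named E24, E28, E31 and E37 by embryonic day, with Carnegie stages 11, 13, 14 and 18 in that order. The title of the series names the origin of gonadal somatic cells. At E24 the trunk was used after yolk sac, amnion, heart region and the posterior growth zone had been taken off, and the label names 2 embryos in this library. At E28 and E31 heart and hindlimb regions were taken off and the urogenital ridge with mesonephros and body-cavity lining was kept. At E37 the piece was mainly the gonadal ridge with mesonephros and presumed adrenal. Stage and dissection therefore cannot be told apart, nor can kit chemistry, which may differ between libraries and is not given for each. With 1 library a stage no test over samples was possible. All intervals below are exact 95% intervals of counting error within a library.

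The 4 libraries held between 5293 and 10639 cells, 27621 in all, with medians of 6674 to 11391 unique transcript counts (UMIs) a cell and 40243286 to 115332663 UMIs a library. Levels are counts per 1000000 UMIs (CPM) of summed cells. Pairs of libraries shared 37 to 111 barcodes, at most 1.67% of the smaller library. Each library was clustered without any T-box gene and without PRRX1, KRT19 and LHX9, giving 100 clusters, 90 of them with at least 50 cells. Clusters are called "like" a cell class only from its marker genes, and cells in unnamed clusters were 12.7% at E24, 39.7% at E28, 37.3% at E31 and 63.4% at E37. No cluster met the marker set of limb mesenchyme in any library, so the 6 genes are described by the cells that held them.

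TBX4, TBX5 and TBX20 were mostly found at E24, whereas TBX2, TBX3 and TBX18 were found at every stage. TBX5 had 6.199 CPM (715 UMIs) at E24, 0.0800 (5 UMIs) at E28, 0.0415 (3 UMIs) at E31 and 0.497 (20 UMIs) at E37. TBX4 had 0.616 CPM (71 UMIs) at E24, 0 UMIs at E28, 1 UMI at E31 and 0 UMIs at E37. TBX20 had 1.08 CPM (124 UMIs) at E24, then 6, 10 and 19 UMIs at E28, E31 and E37. The E24 intervals of all 3 lay above those of each later library. A count of 0 still allows 0.0480 CPM at E28 and 0.0746 CPM at E37.

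TBX2 had 4.06 CPM (3.70 to 4.44) at E24, 17.9 (16.8 to 18.9) at E28, 12.6 (11.8 to 13.5) at E31 and 34.0 (32.2 to 35.8) at E37. TBX3 had 39.9 CPM at E24, 44.2 at E28, 42.7 at E31 and 61.5 at E37. TBX18 had 3.48 CPM (3.15 to 3.83) at E24, 10.5 (9.74 to 11.4) at E28, 8.75 (8.08 to 9.46) at E31 and 29.0 (27.4 to 30.8) at E37. For TBX2 and TBX18 the 4 intervals did not overlap, in the order E24, E31, E28, E37. The E28 and E31 intervals of TBX3 overlapped, at 42.6 to 45.9 CPM and 41.2 to 44.2 CPM, and E37 stood above both.

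**Figure D1:**
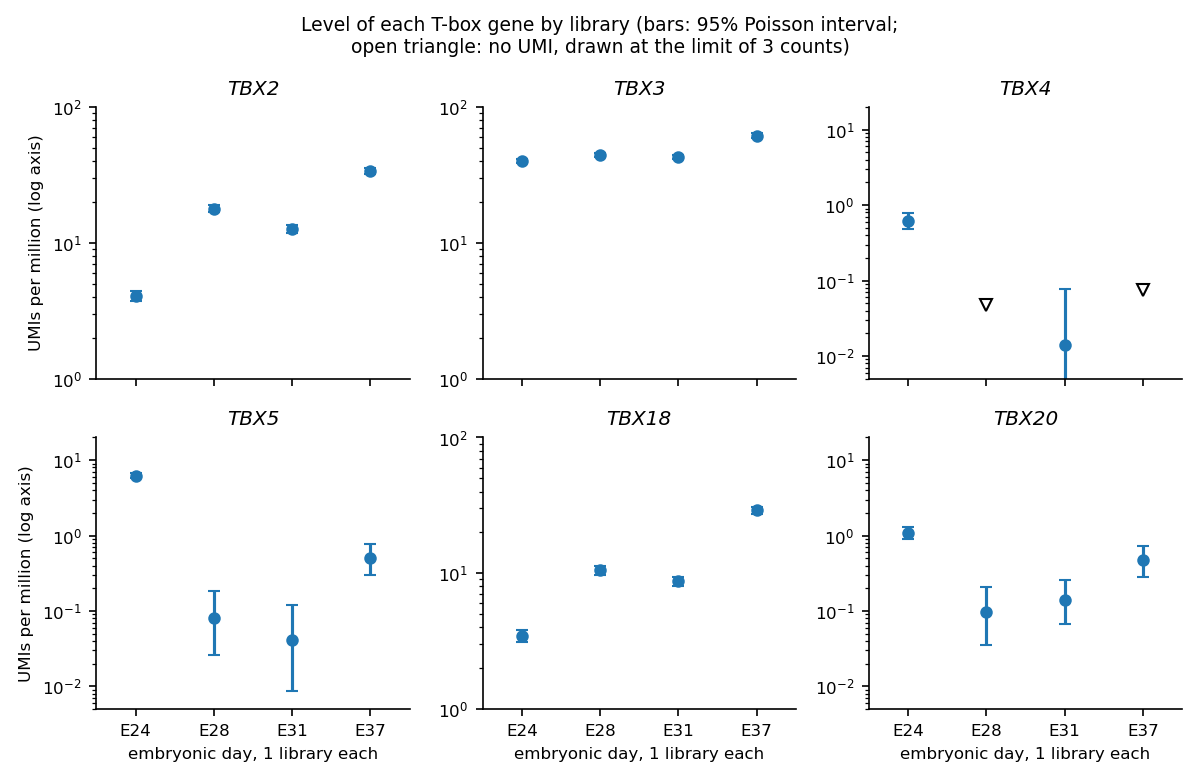
Level of each of the 6 T-box genes (CPM, log axis) in the libraries E24, E28, E31 and E37; bars are exact 95% Poisson intervals and open triangles mark the 3-count limit where no UMI was found. TBX4, TBX5 and TBX20 are highest at E24, and TBX2 and TBX18 are highest at E37.

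A gene was counted as higher or lower between neighbouring stages at 2-fold or more with at least 50 UMIs over both libraries. At E28 against E24, 2 members were higher and 3 lower, where 16.5% of all genes tested were higher and 6.02% lower. TBX2 was 4.40-fold higher (3.95 to 4.91) and TBX18 was 3.03-fold higher (2.67 to 3.44). TBX5 was 77.5-fold lower (33.0 to 239), TBX20 was 11.2-fold lower (5.00 to 31.1) and TBX4 was at least 12.8-fold lower. TBX3 differed by a ratio of 1.11 (1.06 to 1.16) and was not counted. At E31 against E28 none of the members was counted, with 1.21% of genes higher and 3.08% lower. At E37 against E31, 2 members were higher, against 8.79% of genes higher and 7.94% lower. TBX18 was 3.32-fold higher (3.01 to 3.66), TBX2 was 2.69-fold higher (2.47 to 2.93) and TBX3 had a ratio of 1.44 (1.37 to 1.52).

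Shares of cells with a UMI were also taken after each cell was thinned to 2000 UMIs. For TBX2, 0.818%, 3.26%, 1.98% and 6.14% of thinned cells had a UMI at E24, E28, E31 and E37, against 3.53%, 14.6%, 9.44% and 15.5% as deposited. For TBX3 the thinned shares were 6.51%, 8.06%, 7.61% and 9.60%, against 22.4%, 26.6%, 24.9% and 24.9% as deposited. For TBX18 they were 0.639%, 1.79%, 1.92% and 5.93%, against 2.99%, 8.99%, 6.996% and 16.9% as deposited. The thinned share of TBX18 was higher at E31 than at E28 while its CPM was lower, so no order of these stages is read from it. Erythroid-like cells, which should lack these genes, held far fewer. At median depths of 23119, 31407, 28371 and 13770 UMIs, above those of the libraries, TBX3 UMIs were in 4.55%, 2.08%, 2.08% and 0.901% of them, at 3.35, 2.11, 0.772 and 0.617 CPM. TBX2 and TBX18 had 2 UMIs or fewer in the erythroid-like cells of any library.

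At E24, TBX5, TBX4 and TBX20 were concentrated in a few mesenchymal clusters, and not in equal amounts. TBX5, the forelimb and heart gene, had 52.8 CPM (48.2 to 57.7) in cluster 6, an unnamed cluster of 826 cells led by DCN, PRRX1, TBX5 and HAND1 that held 487 of its 715 UMIs. It had 24.5 CPM in cluster 11, a splanchnic-mesenchyme-like cluster of 686 cells led by DCN, COL3A1 and COL1A1, with WNT2 also among its leading genes. Cluster 5, also splanchnic-mesenchyme-like, with 677 cells led by PITX1, HAND1 and PRRX1, held 2 TBX5 UMIs, or 0.280 CPM. The intervals of clusters 6 and 11 did not overlap. Together with cluster 24, which had 13 UMIs or 4.26 CPM, they held 92.0% of TBX5 UMIs. When the T-box and split genes were kept for clustering, splanchnic-mesenchyme-like cells had 0.900 CPM of TBX5, against 7.15 CPM without them, so the placing of TBX5 in that class depended on the clustering genes.

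TBX4, the hindlimb gene, stood in another order among the same clusters. It had 6.04 CPM (4.29 to 8.26) in cluster 11, with 39 of its 71 UMIs, and 2.66 CPM in cluster 5, with 19 UMIs. In cluster 6, where TBX5 was highest, 3 UMIs of TBX4 were found, or 0.325 CPM. TBX20 had 11.5 CPM (9.00 to 14.4) in cluster 11, with 74 of its 124 UMIs, and 7.30 CPM in cluster 10, a splanchnic-mesenchyme-like cluster of 224 cells led by AQP1, LUM and SLC5A12. It had 1.82 CPM in cluster 5 and 0.651 CPM in cluster 6, and clusters 11, 10 and 5 held 86.3% of its UMIs.

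Other genes known from limb fields also differed between these clusters. PRRX1, a homeobox gene of limb and lateral mesenchyme, was nearly even, at 127, 119 and 118 CPM in clusters 6, 11 and 5. FGF10, the growth factor that starts limb outgrowth, had 19.0 CPM in cluster 6, against 5.73 in cluster 11 and 10.8 in cluster 5. PITX1, a hindlimb homeobox gene, had 74.2 CPM in cluster 6, against 367 in cluster 11 and 662 in cluster 5. The posterior genes HOXC10 and HOXD10 had 0.542 and 0.976 CPM in cluster 6, but 24.9 and 42.0 CPM in cluster 5. WNT2, a ligand of lung and allantois mesenchyme, had 194 CPM in cluster 11, against 11.4 in cluster 6 and 10.9 in cluster 5. Cluster 6 thus had the highest TBX5 and FGF10 of the 3, cluster 5 the highest PITX1 and posterior HOX genes, and cluster 11 the highest TBX4, TBX20 and WNT2.

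**Figure D2:**
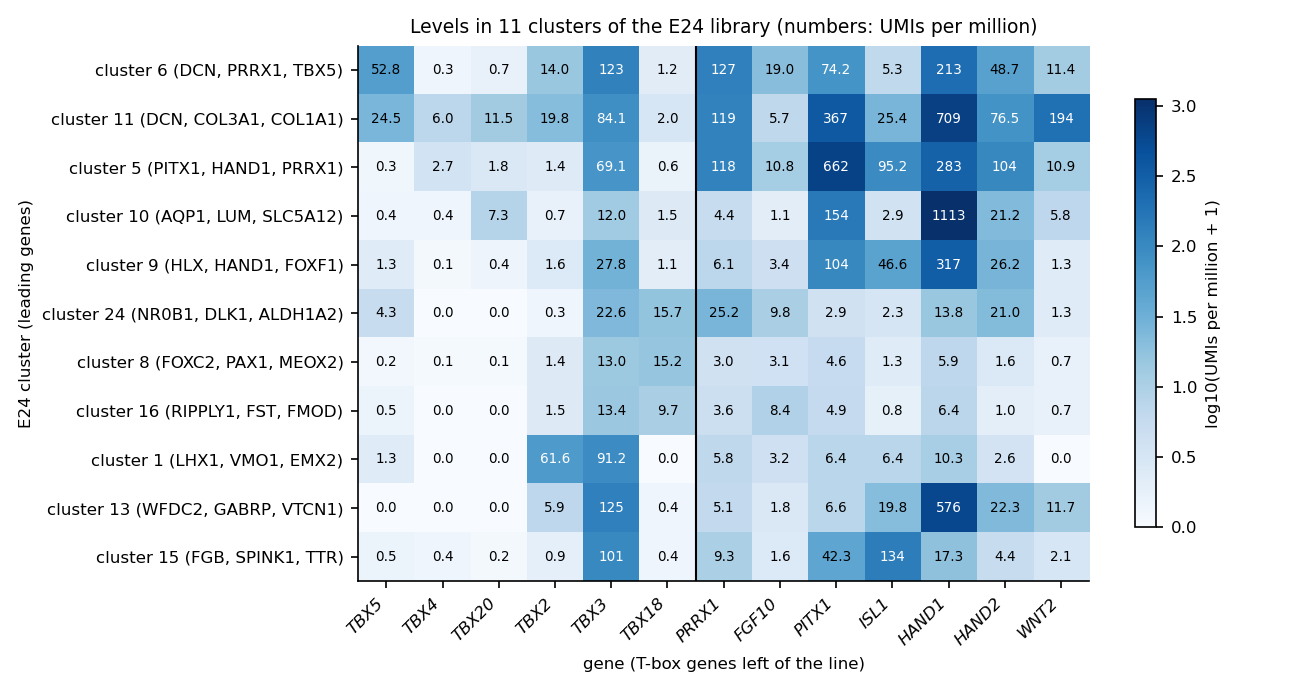
Heat map of 11 E24 clusters (rows, with leading genes) against the 6 T-box genes and 7 other genes (columns), with the level in CPM printed in each cell and coloured on a log scale. TBX5 peaks in cluster 6 and TBX4 and TBX20 peak in cluster 11, while PRRX1 is alike in clusters 6, 11 and 5.

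Cells with a UMI of a member were then set against cells without one in the E24 library. Cells with a member were deeper, for TBX5 by medians of 11301.5 and 9930 UMIs, and the part of depth in these ratios was not tested. The cells were not matched for class, here or in later comparisons of this kind, and the part of class was not tested. In 476 TBX5+ cells against the rest, 8 of 25 measured limb bud genes were higher and 11 lower, where 2.65% of all genes were higher and 10.1% lower. FGF10 had 22.1 CPM in TBX5+ cells and 6.11 CPM in TBX5- cells, 3.61-fold (2.97 to 4.37). PRRX1 had 110 CPM in TBX5+ cells, 4.64-fold that of TBX5- cells. ALDH1A2, which makes retinoic acid, was 3.44-fold higher and MSX2, a homeobox target of BMP, was 2.89-fold higher. PITX1 was 2.58-fold lower (2.24 to 2.98), at 34.7 CPM in TBX5+ cells and 89.6 CPM in TBX5- cells. HOXC10 was 6.58-fold lower (3.66 to 13.2) and ISL1, a hindlimb and heart field gene, was 3.32-fold lower. Of 13 measured heart genes, 6 were higher and 3 lower, among them GATA5 at 34.4 CPM in TBX5+ cells and 5.93 CPM in TBX5- cells. The median log2 ratio was -0.43 for the limb list and 0.76 for the heart list, beside -0.02 over all genes.

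In 67 TBX4+ cells, 9 of 25 limb bud genes were higher and 8 lower than in TBX4- cells, where 10.6% of all genes were higher and 9.67% lower. PITX1 had 631 CPM in TBX4+ cells and 82.9 CPM in TBX4- cells, 7.61-fold (6.95 to 8.32). ISL1 was 4.67-fold higher (3.66 to 5.87) and WNT2 was 11.4-fold higher (9.40 to 13.8). FGF10 had 0 UMIs in TBX4+ cells, against 6.97 CPM in TBX4- cells, and the floor of 3 counts puts it at least 1.89-fold lower. PITX1 and ISL1 were higher in TBX4+ cells and lower in TBX5+ cells, each set against the remaining cells of the library, most of which both comparisons share. Only 2 cells held UMIs of both TBX4 and TBX5.

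In 117 TBX20+ cells, 8 of 13 heart genes were higher and 2 lower, where 9.93% of genes were higher and 10.5% lower. HAND1, a factor of lateral and extraembryonic mesoderm, had 710 CPM in TBX20+ cells and 136 CPM in TBX20- cells, 5.22-fold (4.90 to 5.56). WNT2 was 10.2-fold and COL3A1, a fibrillar collagen, 6.55-fold higher. BMP4 was 2.61-fold higher (2.26 to 3.01). All 13 somite genes were lower in TBX20+ cells, with a median log2 ratio of -2.76 beside -0.04 over all genes.

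After E24, the few TBX20 UMIs lay elsewhere. At E37, 12 of 19 were in sympathoadrenal-like cells (cluster 6, 107 cells led by CHGA, CHGB and DBH), at 18 CPM (9.30 to 31.5). At E28, 3 of 6 TBX20 UMIs were in cluster 4, a crest-and-glia-like cluster. TBX5 at E37 had 12 of its 20 UMIs in coelomic-epithelium-like cluster 10, at 4.56 CPM (2.36 to 7.97).

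After E24, the highest TBX2 and TBX3 level of each library was in a neural-crest-and-glia-like or nephric-epithelium-like cluster, and at E37 no cluster was nephric-epithelium-like. TBX3 at E31 was also high in cluster 20, 117 somite-like cells led by CAV1, TGFB2 and MYF6, at 149.5 CPM (128.2 to 173.2). In crest-and-glia-like cells TBX2 had 0.657 CPM at E24, 81.3 at E28, 71.3 at E31 and 196 at E37. TBX3 had 23.0, 225, 218 and 259 CPM in the same cells. At E24 these were 291 cells led by CRABP1, S100B and WNT1, and at E28, E31 and E37 they were 122, 197 and 415 cells. TUBB3 and NEFM were among the leading genes at E28 and E31, so the leading genes of the class differed between stages. These cells held 12.5%, 17.1% and 50.8% of all TBX2 UMIs and 13.9%, 15.5% and 37.1% of all TBX3 UMIs at E28, E31 and E37.

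Nephric-epithelium-like cells, marked by CALB1, ALDH1A1 and WFDC2, held 28.1% of TBX2 UMIs at E28 and 36.5% at E31. TBX2 had 71.9 CPM (64.2 to 80.3) there at E28 and 37.1 CPM (33.2 to 41.3) at E31. TBX3 had 162 CPM at E28 and 62.3 CPM at E31. Within the class, the levels were uneven, and the clusters pooled at E28 and E31 were not alike. At E31 the class held cluster 5, with CALB1, DKK1 and LHX1, at 23.1 CPM of TBX2 and 37.2 CPM of TBX3. It also held cluster 7, at 71.35 and 123.9 CPM. At E28, cluster 18, led by DKK1, CALB1 and LHX1, was unnamed and so left out, at 6.60 and 15.3 CPM. The class levels at E28 and E31 are therefore not of like cells. Cluster 13 at E28 had 104 CPM of TBX2 and 245 CPM of TBX3, the highest of that library, and for each gene the interval overlapped that of 1 other cluster. At E37 the highest TBX2 level was 266 CPM (217 to 323) in cluster 22, 56 crest-and-glia-like cells with TUBB3 and CAPS among their leading genes, whose interval overlapped no other cluster. TBX3 had 329 CPM (274 to 392) in the same 56 cells. Sympathoadrenal-like cells at E37 had 126 CPM of TBX2 and 120 CPM of TBX3. Podocyte-like cells at E37 had 89.4 CPM of TBX2 and 137 CPM of TBX3. These were 69 cells with ALDH1A1, EPCAM and FXYD2 also among their leading genes. The podocyte-like clusters at E28 and E31 were far lower, at 0 to 5.15 CPM of TBX2 and 1.18 to 4.90 CPM of TBX3.

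At E24 the high TBX3 clusters were of several germ layers. TBX3 had 125 CPM (112 to 139) in cluster 13, unnamed and led by WFDC2, GABRP and VTCN1, and 123 CPM in cluster 6, the TBX5 cluster. Gut-endoderm-and-liver-like cells had 94.2 CPM, surface-ectoderm-like cells 52.6 CPM and splanchnic-mesenchyme-like cells 53.5 CPM. TBX2 at E24 was highest in cluster 1, 138 unnamed cells led by LHX1, VMO1 and EMX2, at 61.6 CPM (49.9 to 75.3), where TBX3 had 91.2 CPM. TFAP2A, GFRA1, MECOM and PAX8 were also among the leading genes of cluster 1. LHX1, TFAP2A and MECOM were leading genes of nephric-epithelium-like cluster 5 at E31 too. High TBX2 in cells with such genes was therefore not confined to the stages after E24. In cluster 11 TBX2 had 19.8 CPM. TBX3 was found in every cluster of at least 50 cells in all 4 libraries, down to 1.74, 1.40, 1.18 and 0.617 CPM. At E37 the lowest was the erythroid-like cluster itself, and at E24, E28 and E31 the lowest were close to the levels in erythroid-like cells.

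Coelomic-epithelium-like cells, the lining from which the gonadal ridge forms, had intermediate levels. TBX3 was at 42.5, 41.3 and 41.6 CPM in them at E28, E31 and E37, with overlapping intervals. The E37 value pools unlike clusters, for TBX3 had 20.2 CPM (15.1 to 26.4) in cluster 10 and 100.4 CPM (81.3 to 122.6) in cluster 14. TBX2 was at 25.6, 12.6 and 22.0 CPM.

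**Figure D3:**
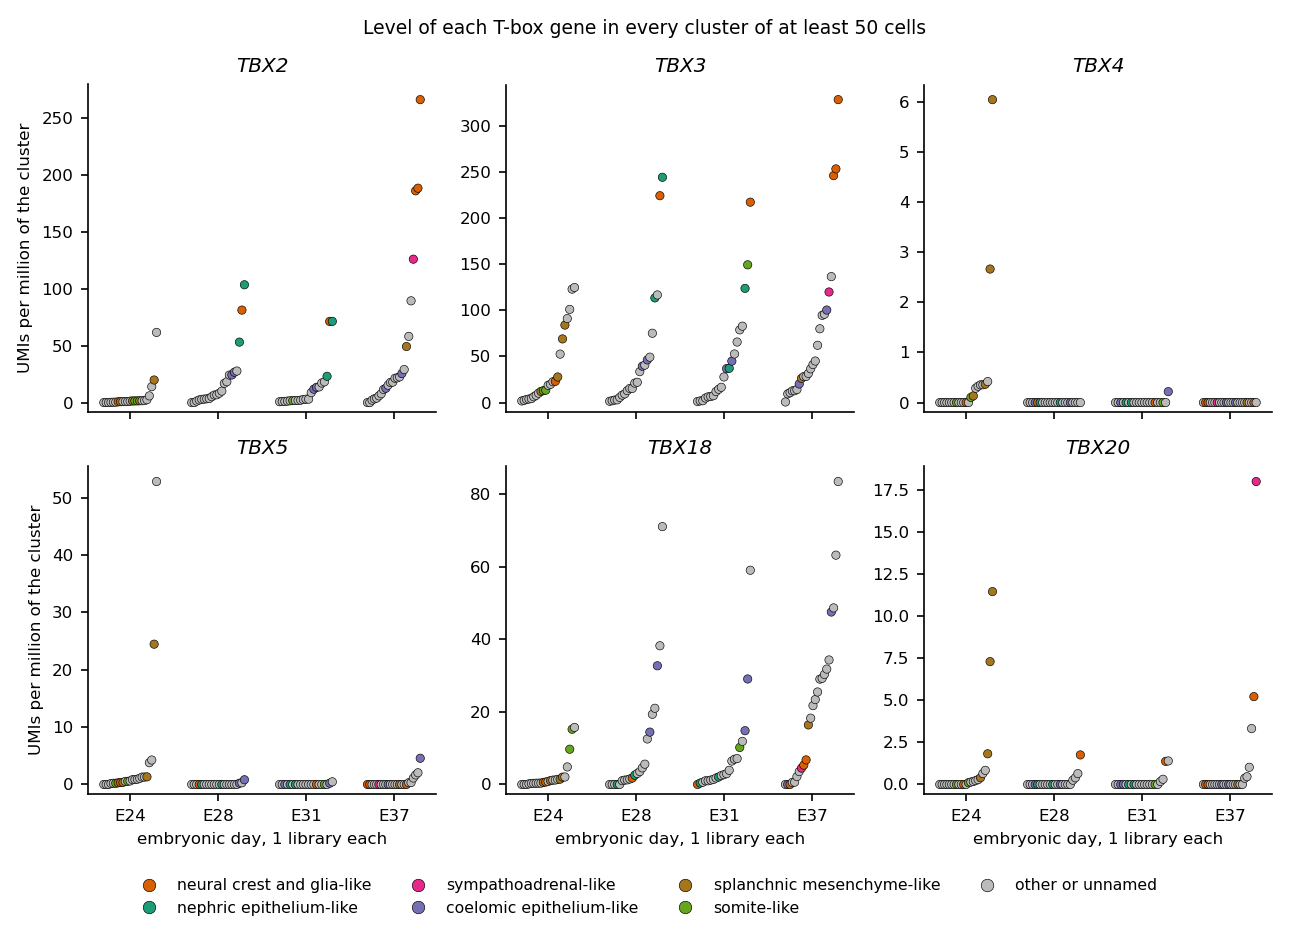
Level of each T-box gene (CPM) in every cluster of at least 50 cells, by library, coloured by the cell class the cluster resembles. From E28 on, the highest TBX2 and the highest TBX3 point of each library are crest-and-glia-like or nephric-epithelium-like, and the highest TBX18 point is an unnamed cluster.

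Among 2384 TBX3+ cells at E24, 6 of 17 BMP signalling genes were higher than in TBX3- cells and 0 lower, where 3.62% of genes were higher and 3.39% lower. MSX2 had 25.0 CPM in TBX3+ cells and 6.64 CPM in TBX3- cells, 3.77-fold (3.37 to 4.21). BMP5, a ligand, was 2.37-fold higher and ID2, a BMP-responsive inhibitor of differentiation factors, 2.15-fold higher. ISL1 was 4.29-fold higher (3.95 to 4.67). Of 13 somite genes 11 were lower. Among 375 TBX2+ cells, 2 of 17 BMP genes were higher, where 3.52% of genes were higher and 5.70% lower, and the heart gene GATA4 was 4.90-fold higher (3.74 to 6.35).

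BMP4 itself was lower in TBX3+ cells at the 3 later stages. At E28 it had 49.6 CPM in TBX3+ cells and 123 CPM in TBX3- cells, 2.47-fold lower, with 1.94% of genes higher and 5.19% lower. At E31 it was 2.77-fold lower, with 1.51% of genes higher and 4.28% lower, and at E37 2.38-fold lower, with 2.73% higher and 4.72% lower. MSX2 was 2.35-fold higher in TBX3+ cells at E28 and 3.92-fold higher at E31. CLDN4, a tight junction protein, was 4.22-fold higher in TBX2+ cells at E28, with 2.23% of genes higher and 4.50% lower. It was 4.73-fold higher at E31, with 2.99% higher and 5.39% lower. The cells in these comparisons were not matched for class, and the part of cell class was not tested. At E31, BMP4 was among the leading genes of nephrogenic-mesenchyme-like clusters 0 and 1, where TBX3 had 6.53 and 11.9 CPM.

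CDKN1A encodes the cell cycle inhibitor p21, a known target of repression by TBX2 in human cell lines. Of 5 measured cell cycle inhibitors, CDKN1A was the 1 counted as lower in TBX2+ and TBX3+ cells from E28 on, and none was higher. In TBX3+ cells it had 0.624 CPM (11 UMIs) against 3.84 CPM (172 UMIs) in TBX3- cells at E28, 6.14-fold lower (3.35 to 12.5). It was 3.63-fold lower at E31 (1.75 to 8.69) and 5.34-fold lower at E37 (3.04 to 10.2). In TBX2+ cells it was 3.35-fold lower at E28 and 2.76-fold lower at E37, where 3.92% of genes were higher and 5.27% lower. At E31, 2 UMIs were in TBX2+ cells and 85 in TBX2- cells. CDKN1A was lower at E28 and E31 in TBX18+ cells too, so the difference was not seen with TBX2 and TBX3 alone. The cells compared were not matched for class, and the part of cell class in this difference was not tested.

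TBX18 was highest in clusters with a class name at E24 and in unnamed clusters later, though some of these shared leading genes. Among E24 clusters of at least 50 cells it was highest in cluster 24, intermediate-mesoderm-like with NR0B1, DLK1 and ALDH1A2, at 15.7 CPM (11.6 to 20.8), and in cluster 8, somite-like with FOXC2 and PAX1, at 15.2 CPM. These intervals overlapped. A smaller cluster stood higher, cluster 17, 32 somite-like cells led by MYLPF, ACTC1 and TNNC2, with 24 UMIs or 49.6 CPM (31.8 to 73.9). In 318 TBX18+ cells at E24, 9 of 13 somite genes were higher and 2 lower, where 2.34% of genes were higher and 9.59% lower. PAX1, a sclerotome gene, had 47.5 CPM in TBX18+ cells and 5.87 CPM in TBX18- cells, 8.10-fold (6.87 to 9.50). RIPPLY1, which closes segmentation, was 5.74-fold and PAX9 4.63-fold higher, while the segmentation genes MESP2 and DLL1 were 2.26-fold and 3.05-fold lower. PRRX1, PITX1, ISL1 and HAND2 were among 10 of 25 limb genes that were lower.

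From E28 on, TBX18 was highest in clusters with no class name. At E28 it had 71.1 CPM (61.1 to 82.3) in cluster 9, 210 cells led by DLK1, TNC and COL3A1, above every other cluster of that library. At E31 it had 59.1 CPM (51.2 to 67.8) in cluster 4, 358 cells led by DLK1, COL3A1 and TNC, again above every other. At E37 it had 83.5 CPM (73.0 to 95.2) in cluster 3, 461 cells led by DCN, SHISA3, HLX and LHX9, and 63.2 CPM in cluster 12, led by LHX9, KRT19 and CXCL10. Some leading genes were shared with E24 cluster 24, namely DLK1 and OSR2 in E28 cluster 9 and DLK1 and NR0B1 in E31 cluster 4. The E37 interval of TBX18 in cluster 3 overlapped that of 1 other cluster. Coelomic-epithelium-like cells had 24.6 CPM at E28, 22.6 at E31 and 34.9 at E37. At E37 this class was split, for cluster 10 had 47.5 CPM, and cluster 14, 149 cells led by EMX2, CXCL10 and PODXL, had 0 TBX18 UMIs while TBX3 stood at 100 CPM there.

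In TBX18+ cells of the later stages, hedgehog pathway genes of the ureter and urogenital mesenchyme list were counted as higher at E28 and E31 but not at E37. At E28, 4 of 16 genes of the list were higher and 3 lower, where 2.44% of genes were higher and 11.4% lower. GLI1, a readout of hedgehog signalling, had 7.71 CPM in TBX18+ cells and 2.33 CPM in TBX18- cells, 3.30-fold (2.33 to 4.62), and GLI2 was 2.31-fold higher. At E31, 5 of 17 were higher and 3 lower, where 2.38% of genes were higher and 8.69% lower, with GLI1 at 2.07-fold (1.42 to 2.94) and TSHZ3, a factor of ureter smooth muscle, at 2.29-fold. At E37, 0 of 17 were higher and 1 lower, where 0.544% of genes were higher and 7.04% lower, and GLI1 had a ratio of 1.05 (0.765 to 1.42). EPCAM, an epithelial adhesion protein, was 8.54-fold lower in TBX18+ cells at E28, 4.71-fold at E31 and 5.89-fold at E37. LHX9, a gonadal ridge homeobox gene, was 2.65-fold, 3.18-fold and 3.20-fold higher at E28, E31 and E37.

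Cells were next split by a UMI of PRRX1, a mesenchymal gene, of KRT19, an epithelial and mesothelial keratin, and of LHX9. At E24, 1736 cells were PRRX1+, at a median of 10937 UMIs, and 8903 were PRRX1-, at 9786 UMIs. All 6 members differed by 2-fold or more there, 5 higher and 1 lower, where 2.54% of genes were higher and 7.74% lower. TBX4 had 2.52 CPM in PRRX1+ cells and 0.201 CPM in PRRX1- cells, 12.6-fold (7.31 to 22.5). TBX5 had 23.6 CPM in PRRX1+ cells and 2.41 CPM in PRRX1- cells, 9.81-fold (8.36 to 11.5). TBX20 was 4.59-fold higher (3.18 to 6.64).

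TBX3 had 91.8 CPM in PRRX1+ cells and 28.6 CPM in PRRX1- cells, 3.21-fold (3.02 to 3.40), and TBX2 was 3.19-fold higher (2.64 to 3.85). TBX18 had 1.84 CPM in PRRX1+ cells and 3.83 CPM in PRRX1- cells, 2.08-fold lower (1.49 to 2.99). When cells were thinned to 2000 UMIs before the split, TBX2, TBX3 and TBX5 were still counted as higher, TBX4 and TBX20 had too few UMIs, and TBX18 had a log2 ratio of -0.27 that was not counted. At E28, TBX2 had 27.1 CPM in PRRX1+ cells and 16.2 CPM in PRRX1- cells, a ratio of 1.67, and 0 of 3 measured members were counted, where 1.11% of genes were higher and 11.1% lower. After thinning, 1 of them was counted as higher at E28. At E31 the ratios of TBX2, TBX3 and TBX18 lay between 1.12 and 1.25, with 1.06% of genes higher and 10.1% lower. At E37 TBX2 had 19.4 CPM in PRRX1+ cells and 35.2 CPM in PRRX1- cells, a ratio of 0.551 that was not counted, and a log2 ratio of -1.23 that was counted after doublet removal, with 1.09% of genes higher and 7.08% lower.

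Crest-like, nephric-like and sympathoadrenal-like cells carried much of TBX2 and TBX3. Without them, TBX2 at E28 had 26.4 CPM in PRRX1+ cells and 8.88 CPM in PRRX1- cells, 2.98-fold (2.53 to 3.49). TBX3 at E28 was then 2.16-fold higher in PRRX1+ cells, and TBX2 at E31 2.40-fold (1.93 to 2.97). At E37 the TBX2 ratio became 1.003 (0.733 to 1.35). This comparison was added after the data were seen, and the classes were picked for their high TBX2 and TBX3. Few of their cells had PRRX1, with 0.820%, 3.21% and 1.52% in E28 clusters 4, 5 and 13. Leaving them out took TBX2 in PRRX1- cells at E28 from 860 to 418 UMIs. The direction of the change was therefore set by the choice of cells, and nothing is concluded from it. The same limit holds where these cells are left out below.

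KRT19 was widely detected, and its split is the least clean of these. At E24, 62.9% of all cells had a KRT19 UMI, against 62.7% of erythroid-like cells, or 39.3% against 13.6% after thinning. Its level was 562 CPM over the library and 87.9 CPM in erythroid-like cells. From E28 on KRT19 had 33.4, 39.5 and 72.1 CPM in the libraries and 52.8, 37.8 and 72.9 CPM in erythroid-like cells. A single UMI therefore does not by itself set a cell apart from erythroid-like cells. Other clusters differed widely. At E28 KRT19 had 112 and 120 CPM in coelomic-epithelium-like clusters 3 and 17, against 4.09 CPM in crest-and-glia-like cluster 4. At E31 it had 124 and 159 CPM in coelomic-epithelium-like clusters 2 and 3, against 2.28 CPM in crest-and-glia-like cluster 17. At E24, 4 members were higher in KRT19+ cells, where 7.90% of genes were higher and 3.59% lower. TBX20 had 122 UMIs in KRT19+ cells and 2 in KRT19- cells, a 30.1-fold ratio (8.15 to 251), and TBX4 had 66 UMIs in KRT19+ cells and 5 in KRT19- cells, 6.51-fold (2.65 to 20.7).

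TBX5 was 3.66-fold higher in KRT19+ cells (2.91 to 4.64) and TBX3 2.91-fold higher (2.68 to 3.17). TBX18 had 2.69 CPM in KRT19+ cells and 5.07 CPM in KRT19- cells, a ratio of 0.531. In thinned cells TBX3 and TBX5 had log2 ratios of 0.94 and 0.76 between KRT19+ and KRT19- cells, and none of the members was counted. Both markers together set TBX5 apart by PRRX1 more than by KRT19. TBX5 had 23.0 CPM in 1567 PRRX1+ KRT19+ cells and 31.0 CPM in 169 PRRX1+ KRT19- cells, but 3.34 CPM in 5120 PRRX1- KRT19+ cells and 0.907 CPM in 3783 cells with neither. At E28 and E31 0 of 3 measured members were counted in the KRT19 split. At E31 the TBX2 ratio was 0.930 (0.795 to 1.08) as deposited. After thinning, 132 cells of the E31 library kept a TBX2 UMI, and TBX2 was counted as lower, at a log2 ratio of -2.17. That thinned ratio is given without an interval, and no difference is read from it. At E28 1.98% of genes were higher and 4.38% lower, and at E31 1.92% were higher and 3.81% lower. At E37 TBX2 had 18.2 CPM in KRT19+ cells and 38.0 CPM in KRT19- cells, 2.09-fold lower (1.76 to 2.49), where 3.52% of genes were higher and 8.02% lower. Without the crest-like, nephric-like and sympathoadrenal-like cells the ratio was 1.01 (0.827 to 1.23).

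TBX18 was higher in LHX9+ cells in each of the 3 libraries where the split could be made. At E28 it had 26.8 CPM in 144 LHX9+ cells and 9.96 CPM in LHX9- cells, 2.70-fold (2.02 to 3.54), where 3.33% of genes were higher and 13.7% lower. At E31 it had 28.4 CPM (25 UMIs) in 67 LHX9+ cells and 8.51 CPM in LHX9- cells, 3.34-fold (2.15 to 4.98), where 6.10% of genes were higher and 10.8% lower. At E37 it had 68.4 CPM in 619 LHX9+ cells and 23.6 CPM in LHX9- cells, 2.90-fold (2.55 to 3.30), where 2.89% of genes were higher and 8.95% lower. The intervals of the 3 ratios overlapped. At E37 the log2 ratio was 1.54 as deposited and 0.97 after thinning, just short of 2-fold. E24 had 15 LHX9+ cells and was not compared. At E28, 85 and 79 of 195 LHX9 UMIs lay in coelomic-epithelium-like clusters 3 and 17, where TBX18 had 32.7 and 14.4 CPM. At E31, 37 and 32 of 85 lay in coelomic-epithelium-like clusters 2 and 3. LHX9+ cells were also deeper, at E28 by medians of 13537 and 11316 UMIs. The part of cell class and depth in these ratios was not tested.

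At E37, TBX2 and TBX3 went the other way. TBX3 had 18.6 CPM in LHX9+ cells and 67.4 CPM in LHX9- cells, 3.63-fold lower (2.95 to 4.53), and 3.08-fold lower (2.42 to 3.97) without crest-like, nephric-like and sympathoadrenal-like cells. TBX2 had 16.3 CPM in LHX9+ cells and 36.4 CPM in LHX9- cells, 2.23-fold lower (1.78 to 2.83). Without those cells TBX2 had 12.95 CPM in LHX9+ cells and 16.9 CPM in LHX9- cells, a ratio of 0.768 (0.581 to 1.001). At E28 the ratios were 1.17 for TBX2 and 0.946 for TBX3, within 2-fold, and at E31 they were 1.91 and 0.798. TBX2 at E31 was 3.97-fold higher in LHX9+ cells (2.43 to 6.14, 21 UMIs) without those cells.

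**Figure D4:**
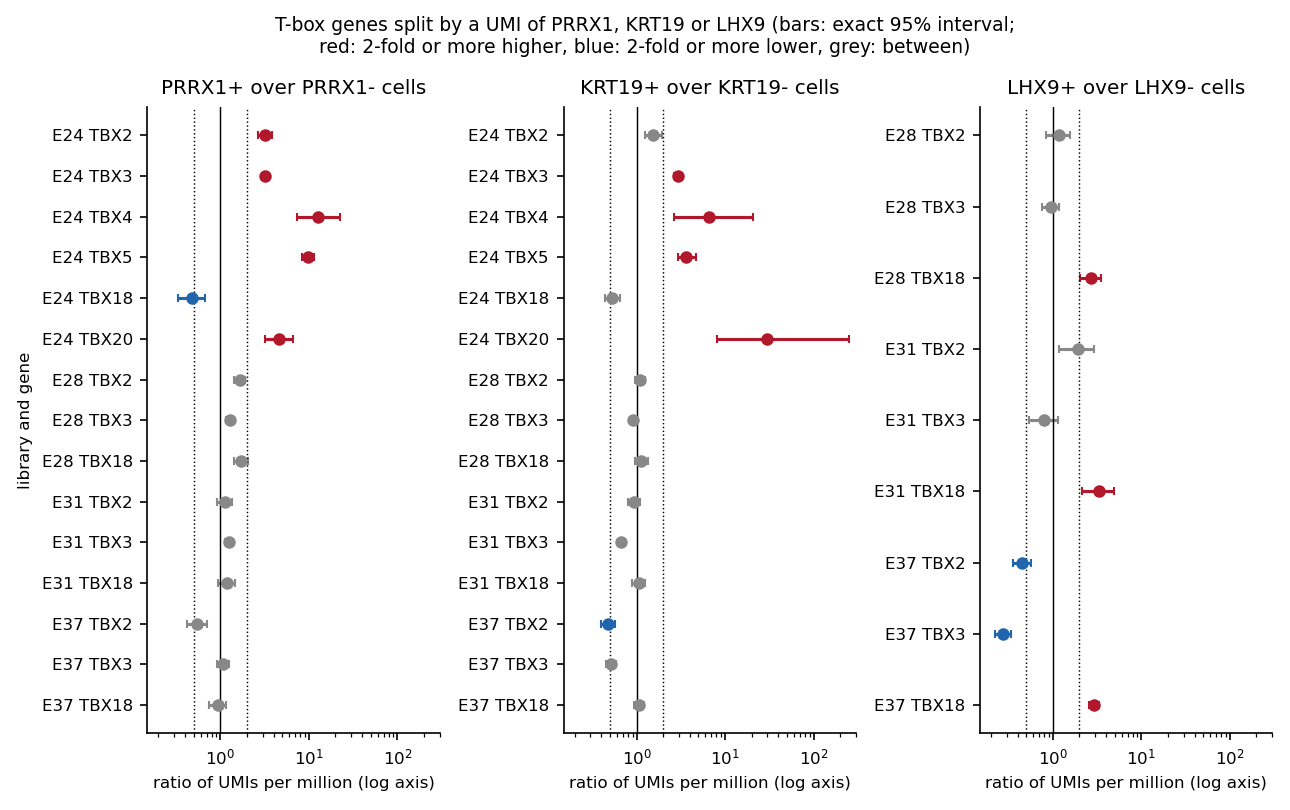
Ratio of each T-box gene's level in cells with a UMI of PRRX1, KRT19 or LHX9 to that in cells without (log axis), by library, with exact 95% intervals; dotted lines mark 0.5 and 2. TBX4 and TBX5 have the highest PRRX1 ratios at E24, and TBX18 lies above 2 for LHX9 at E28, E31 and E37.

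Most cells had no UMI of any member, and the pair found together in most cells was TBX2 with TBX3 at E28, E31 and E37 and TBX3 with TBX5 at E24. Cells with none made up 71.6%, 62.5%, 66.7% and 54.3% at E24, E28, E31 and E37, and cells with a pair of members 4.98%, 10.96%, 7.76% and 10.9%. TBX2 and TBX3 were found together in 220, 438, 398 and 384 cells. The product of their shares over the library gives 84.0, 195, 157 and 204 cells, so the ratios were 2.62, 2.25, 2.54 and 1.88. When the product was taken within each cluster and summed, the ratios were 1.29 (1.12 to 1.47), 1.26 (1.15 to 1.39), 1.48 (1.34 to 1.64) and 1.13 (1.02 to 1.25). Deep cells raise both detections, and in thinned cells the ratios within clusters were 1.17, 1.31, 1.44 and 1.18, with intervals that held 1. Of cells with TBX2, 58.7%, 59.8%, 63.3% and 46.8% also had TBX3 as deposited.

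At E24, TBX5 was found with TBX2 in 98 cells and with TBX3 in 304 cells. The library products give 16.8 and 107 cells, and the ratios within clusters were 1.63 (1.32 to 1.99) for TBX2 with TBX5 and 1.24 (1.11 to 1.39) for TBX3 with TBX5. TBX4 was with TBX3 in 41 cells, 61.2% of TBX4+ cells, at a ratio within clusters of 1.5 (1.08 to 2.04). In thinned cells they shared 2 cells, at a ratio of 1.47 (0.178 to 5.32), so the excess was not detectable at that depth. TBX4 and TBX20 shared 7 cells, against 0.737 from the library product, and 1.70 (0.682 to 3.49) within clusters.

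TBX5 and TBX20, which both had UMIs in cluster 11, shared 5 cells, 0.365 of the product within clusters (0.118 to 0.851). In thinned cells they shared 1 cell, at a ratio of 0.937 (0.0237 to 5.22), so the low ratio was not detectable at that depth. TBX4 and TBX5 shared 2 cells, 0.272 (0.0329 to 0.981), and 0 cells after thinning, where 0.353 cells were given by the product. These are 2 of 15 pairs, from few cells, and no multiple-comparison allowance was made. TBX18 and TBX3 shared 44 cells at E24, 0.618 of the library product (0.449 to 0.829) but 1.02 of the product within clusters. TBX2 and TBX18 at E37 shared 92 cells, 0.664 of the library product and 0.885 within clusters (0.714 to 1.09).

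**Figure D5:**
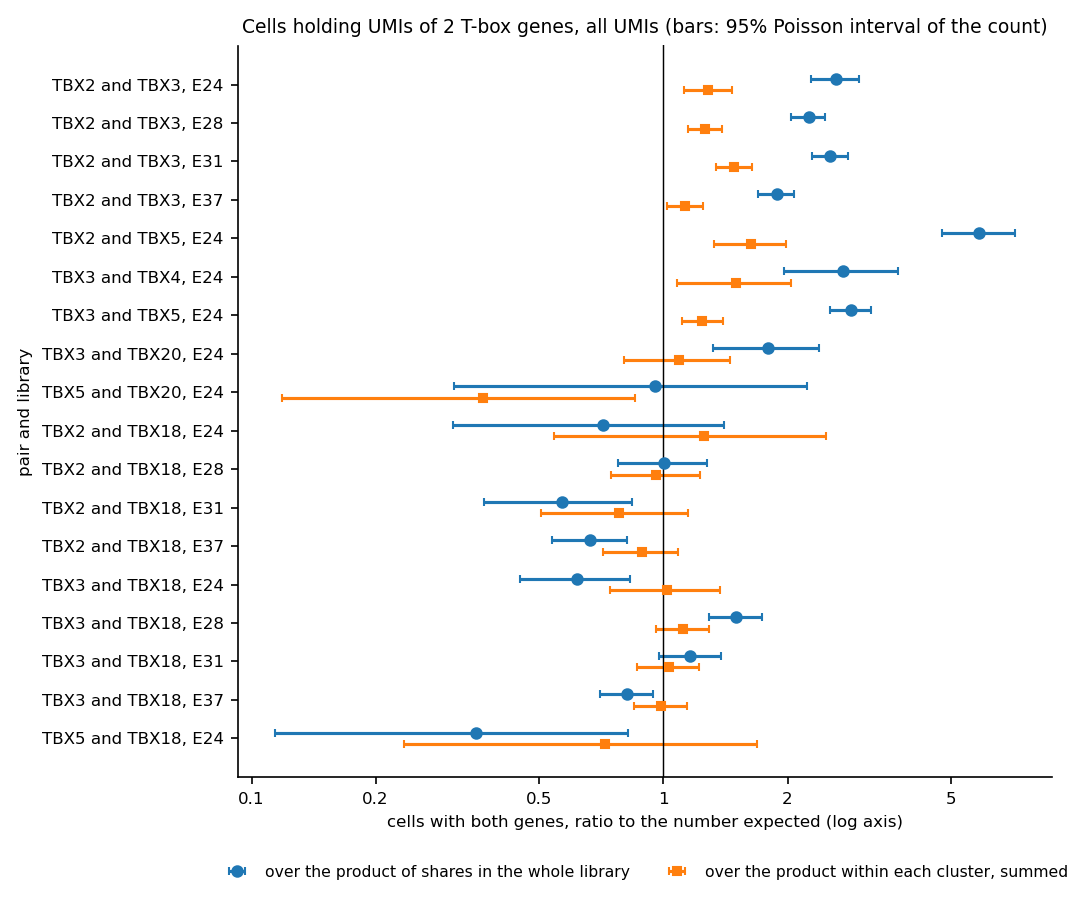
Cells with UMIs of both members of a pair, as a ratio to the number the product of their shares gives over the library (circles) or within clusters (squares), by library, with exact 95% intervals, as deposited. TBX2 with TBX3 lies above 1 in all 4 libraries on both measures, and nearer to 1 within clusters.

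The genes most like each member were ranked by Pearson's r of log2(CPM + 10) over the 90 clusters, centred within each library, among 11404 genes. The clusters of a library share its depth and preparation, so r is a description. TBX2 was most like CAPS (0.72), L1CAM (0.71), PLEKHA5 (0.71), TBX3 (0.70) and TMEM2 (0.65). TBX3 was most like TBX2 (0.70), GULP1 (0.65), PDE5A (0.62), GATA3 (0.61) and LIMA1 (0.61). TBX4 was most like WNT2 (0.83), RSPO2 (0.80), UGT3A1 (0.66), COL21A1 (0.64) and PITX1 (0.62). TBX4 had 72 UMIs in all, 39 of them in E24 cluster 11 and 19 in E24 cluster 5. Its ranking therefore rests on few counts and few clusters.

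TBX5 was most like RSPO2 (0.61), SFRP5 (0.61), WNT2 (0.58), FITM1 (0.57) and HGF (0.49), and TBX18 like PLAGL1 (0.80), PHACTR2 (0.78), LRRC17 (0.77), TMEM200A (0.75) and FAT4 (0.75). TBX20 was most like PRPH (0.85), ABCB1 (0.72), DBH (0.71), SLC18A1 (0.69) and DIO3 (0.69). TBX20 had 159 UMIs in all, 12 of them in the E37 sympathoadrenal-like cluster, so its ranking rests on few counts. TBX4 and TBX5 share WNT2 and RSPO2 among these, whereas the genes beside TBX20 include DBH and SLC18A1 of catecholamine cells. TBX2 and TBX3 were the only pair of members named beside each other.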

How the data were processed

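Single-cell RNA of 4 cynomolgus embryo libraries was analysed. The authors deposited raw UMI counts for every gene and barcode, made with Cell Ranger 2.1.0 per the submitters' processing notes. For genome build, annotation and kit version per library, none is given in the sources used here. The protocol names more than a single version of the kit chemistry, without saying which library used which. Each table had 26223 gene rows, of which 1 was blank with 0 UMIs and was left out. Cells with at least 500 genes were kept, which left out 5 barcodes. Scrublet called 0%, 1.11%, 0.105% and 0.0945% doublets at E24, E28, E31 and E37, and the rates under 0.5% in 3 libraries were taken to mean that it had not worked there. No doublets were removed, and removal at 0.8% per 1000 barcodes (906, 202, 355 and 224 cells) was an alternative.

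Clusters came from the Leiden method (resolution 1, seed 0) on 15 neighbours in 30 principal components of 2000 variable genes, in scanpy 1.11.5 with anndata 0.12.19, igraph 0.11.9, scikit-learn 1.9.0, numpy 2.4.6, scipy 1.17.1, pandas 2.3.3 and Python 3.11.15, with figures in matplotlib 3.10.9. Names came from markers of 22 classes, with thresholds set after the data were seen. A name needed at least 3 high markers and 40% of markers high. The members, 11 gene lists and splits were chosen with earlier results of these data known.

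UMIs were summed and scaled to CPM. Levels have exact Poisson intervals, ratios exact conditional binomial intervals and shares exact binomial intervals, all at 95% and for counting error only. A call needs a 2-fold difference with a pseudocount of 0.5 UMIs and at least 50 UMIs over both sides, and each side of a split at least 50 cells. The floor for a count of 0 is 3 counts. Members are all named, list genes only at 2-fold or more with at least 50 UMIs or as a contrast to such a value, and for each member the 5 genes most like it with at least 500 UMIs. Some list genes are counted but not reported here by name. The ratio intervals and 2-fold calls were tested on simulated counts, drawn as independent Poisson sums from the E28 means. These leave out differences in class and depth between cells, so the test covers counting error only. Alternatives were doublet removal, at least 1000 genes a cell, means of per-cell CPM, leaving out erythroid-like cells, thinning to 3000 UMIs or none, splits at 2 UMIs or after thinning, Leiden resolution 2, and clustering with the T-box and split genes kept.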

Additional observations from a re-analysis of the deposited data

How the results depend on the processing

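Of 431 values recomputed under the alternatives, 336 kept their count or stayed within the interval as reported, 94 moved and 1 reversed. The value counted as reversed was TBX2 at E37 in KRT19+ over KRT19- cells. It had a log2 ratio of 0.0149 without crest-like, nephric-like and sympathoadrenal-like cells, against -1.06 with them. The interval of that ratio, 0.827 to 1.23, held 1, so the difference was lost rather than turned round. Thinning before the split leaves fewer UMIs, and gave 3 higher and 0 lower for PRRX1 at E24 (5 and 1 before), 0 higher for KRT19 at E24 (4 before), 1 higher for PRRX1 at E28, 1 lower for KRT19 at E31 and 0 higher for LHX9 at E37 (1 before). Without the crest-like, nephric-like and sympathoadrenal-like cells there were 2 members higher for PRRX1 at E28, 1 for PRRX1 at E31, 2 for LHX9 at E31, and, lower, 0 for KRT19 and 1 for LHX9 at E37. Doublet removal gave 1 lower for PRRX1 and 2 lower for KRT19 at E37, and a split at 2 UMIs gave 0 lower for KRT19 at E37. Shares over all genes were not taken under these alternatives, so these counts have no background beside them and are not read as results about the members. In splanchnic-mesenchyme-like cells at E24, TBX4 had 1.91 CPM (2.51 before) when T-box and split genes were kept in clustering, and TBX5 had 0.900 CPM, or 8.63 CPM at resolution 2 (7.15 before). The cause was not tested. No value was had for LHX9 at E28 and E31 with a split at 2 UMIs or after thinning, where fewer than 50 cells were left. No paired analysis was possible because each stage has 1 library.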

Other observations

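Other members of the family followed other courses over the 4 libraries. T (brachyury), a gene of the primitive streak and notochord, had 10.98 CPM (1266 UMIs) at E24, then 15, 9 and 4 UMIs at E28, E31 and E37. TBX6, a gene of presomitic mesoderm, had 11.01 CPM at E24, 1.49 at E28, 0.789 at E31 and 0.994 at E37. MGA, a chromatin factor with a T domain, was nearly even at 26.8, 31.1, 30.4 and 26.0 CPM. TBX1, a pharyngeal gene, had 0.321, 1.20, 1.43 and 0.945 CPM, and TBX19 had 0.650, 1.01, 1.07 and 1.52 CPM. TBX15, a mesenchymal gene, had 0, 8, 9 and 0 UMIs, and TBX21, a gene of T cells, had 0 UMIs in every library.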
